A study of Mus musculus with 24 samples.

Results

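The genes described here are 8 genes of the conducting airway, measured by RNA-Seq in mouse alveolar epithelial cells (AECs). They were taken by name from 55421 gene identifiers in the count table, and all 8 were among the 18046 genes with enough counts to be tested. The secretory genes, 5 in number, belong to club and mucous cells: *Scgb1a1*, *Scgb3a1*, *Scgb3a2*, *Cyp2f2*, and *Muc5b*. The other 3, *Foxj1*, *Tppp3*, and *Sec14l3*, were grouped as genes of ciliated cells. Type 2 AECs (AEC2s) were isolated from WT mice (*Krt8*+/+) or from KO mice lacking keratin 8 throughout the body (*Krt8*-/-). RNA was collected from fresh cells (day 0) and after 1, 3, or 7 days of 2D culture. Each of the 8 groups of genotype and day held 3 libraries, labeled as biological replicates 1, 2, and 3. Each replicate number had a batch of its own, which both genotypes and all 4 days shared. A suffix written like a date marks the batch in the sample titles, and the labels do not say what it stands for. The labels name no strain, age, or number of mice. A level is given as CPM, the share of a library's counts on the usual scale for RNA-Seq, with library sizes adjusted by the TMM method.

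Club cells are secretory cells of the bronchioles. They release secretoglobins, small proteins of the airway lining fluid, and carry cytochrome P450 enzymes that metabolize inhaled compounds. Ciliated cells move mucus by beating cilia, whose genes are switched on under the transcription factor FOXJ1. Neither cell lines the alveolus, so in an isolate of AEC2s these transcripts report on airway cells carried along, on AECs that express the same genes, or on both. In bulk samples, fewer cells of a type and less RNA per cell cannot be told apart.

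Total counts ranged from 10184439 to 19483386 per library. The labels held up on their main markers. *Krt8* was at 485 to 552 CPM in WT and 21.2 to 36.4 CPM in KO libraries on day 0, and *Sftpc*, the surfactant gene of AEC2s, was at 147526 to 220906 CPM in both. Some libraries stood apart. The day 0 WT library of batch 3 was low in motile cilium genes: 35 listed genes other than the 8 summed to 345 CPM there, against 949 and 1068 CPM in the WT libraries of batches 1 and 2. Batch 2 differed on day 1, when 10 AEC2 genes summed to 15404 CPM in WT and 14528 CPM in KO cells, against 64716 to 90620 CPM in the other 4 day 1 libraries. In batch 1 the WT libraries had *Xist* at 62.4 to 79.5 CPM and *Ddx3y* at no more than 0.441 CPM, whereas the KO libraries had *Xist* at 5.92 to 11.95 CPM and *Ddx3y* at 58.1 to 85.0 CPM. *Xist* is expressed from the inactive X chromosome and *Ddx3y* lies on the Y chromosome. Their part in the comparison of genotypes was not tested.

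The 8 genes together held 0.564% to 1.60% of the counts of a day 0 library and 0.00216% to 0.00450% of those of a day 7 library. To compare genes with each other, CPM was divided by the length of all exons joined. On this scale *Scgb1a1* led in fresh WT cells at 12563 ± 5929 CPM per kb (SD, n = 3). It was followed by *Cyp2f2* at 690 ± 189, *Sec14l3* at 498 ± 71.6, *Scgb3a2* at 269 ± 144, *Tppp3* at 182 ± 45.99, *Scgb3a1* at 75.2 ± 52.3, *Foxj1* at 25.6 ± 13.8, and *Muc5b* at 0.192 ± 0.158 CPM per kb. Neighbors from *Cyp2f2* to *Tppp3* overlapped in this order, as did *Scgb3a1* and *Foxj1*, whereas *Scgb1a1* and *Muc5b* stood clear of their neighbors. By day 7 the WT order began with *Scgb1a1* at 25.7 ± 5.57 CPM per kb and *Foxj1* at 5.30 ± 2.44 CPM per kb. The secretory genes *Scgb3a2* and *Muc5b* had no count by then.

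**Figure D1:**
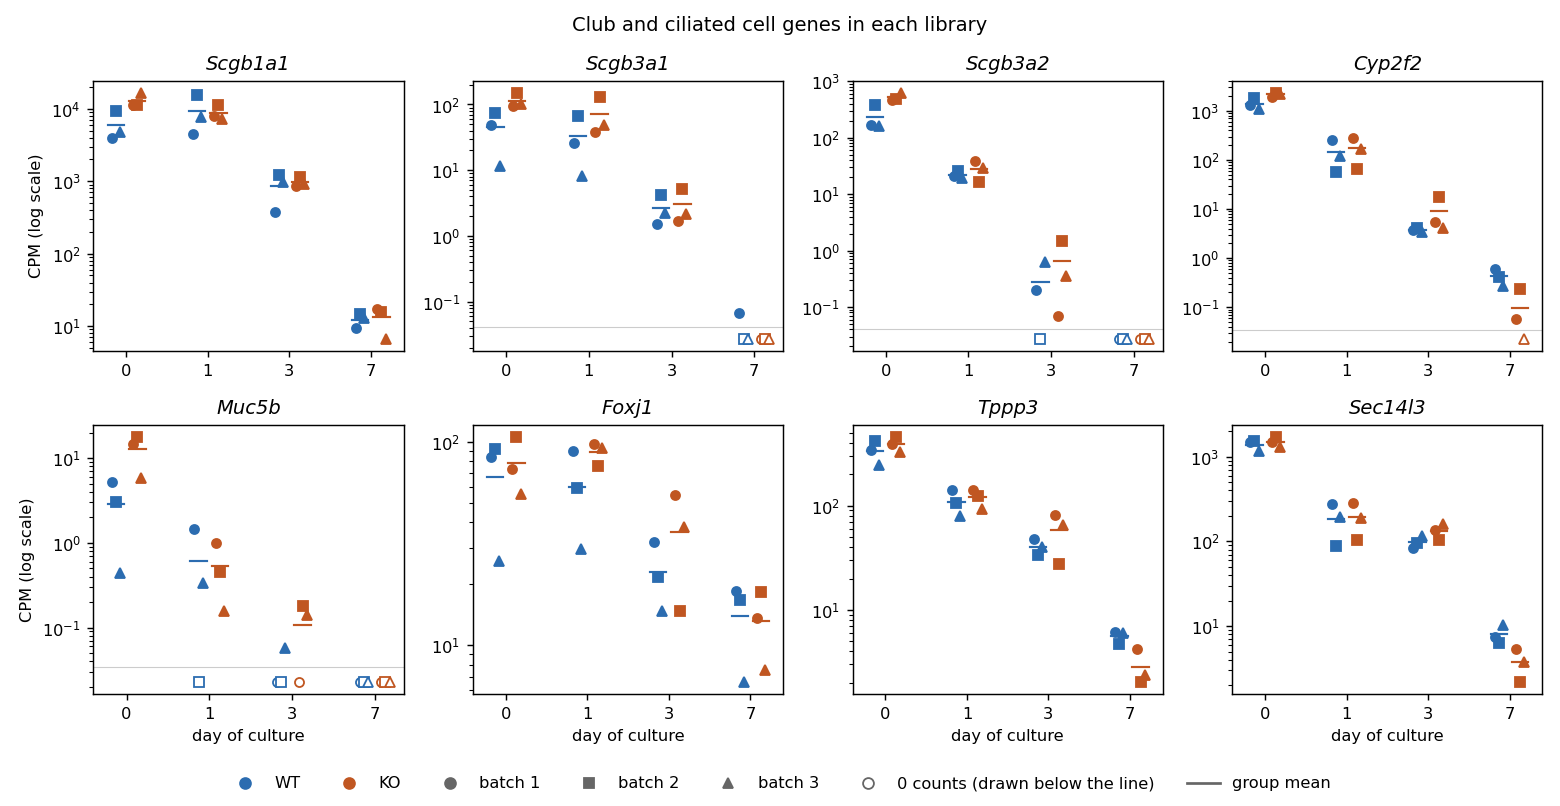
CPM (log scale) of each gene in each of the 24 libraries by day of culture, with WT in blue, KO in orange, symbols for the 3 batches, and bars for group means. Open symbols under the gray line are libraries with 0 counts, and bars of means below the lowest value above 0 are not drawn. The day 1 libraries of *Scgb1a1* and *Foxj1* overlapped those of day 0, whereas those of *Scgb3a2*, *Cyp2f2*, and *Sec14l3* were all below them.

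*Scgb1a1*, on chromosome 19 (GRCm38 chr19:9083636-9087958, minus strand), encodes club cell secretory protein, the most abundant secretoglobin. In WT cells it was at 3895, 9192, and 4854 CPM on day 0 in batches 1, 2, and 3. One day later it was at 4517, 15587, and 7597 CPM, higher than on day 0 in 3 of 3 batches, although the groups overlapped. In KO cells it was at 11351, 11146, and 16356 CPM on day 0 and at 7946, 11335, and 7185 CPM on day 1, lower in 2 of 3 batches and overlapping as well. Neither difference passed the test. The log2 change was 0.63 ± 0.44 (SE) in WT (edgeR quasi-likelihood test, adjusted p = 0.234) and -0.55 ± 0.44 in KO cells (edgeR adjusted p = 0.302). On day 3 *Scgb1a1* was at 374, 1221, and 970 CPM in WT and 866, 1127, and 905 CPM in KO cells, or 14.3% ± 5.27 and 7.76% ± 2.29 (SD, n = 3) of day 0 in the same batch. On day 7 it was at 9.32, 14.5, and 12.9 CPM in WT and 17.5, 15.4, and 6.70 CPM in KO cells, so that its transcript was still counted in every library. The log2 change from day 0 to day 7 was -8.93 in WT and -9.94 in KO cells (edgeR adjusted p = 3.16e-10 and 1.32e-10).

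*Scgb3a1*, another secretoglobin, lies at chr11:49663610-49665118 on the plus strand. In WT cells it was at 49.5, 73.8, and 11.7 CPM on day 0 and at 25.9, 65.7, and 8.22 CPM on day 1. KO cells gave 93.5, 148, and 100.4 CPM on day 0, followed by 37.9, 129, and 49.4 CPM. It was lower on day 1 in 3 of 3 batches of each genotype, at 70.5% ± 18.3 and 59.0% ± 24.8 of day 0 (SD, n = 3), without passing the test (edgeR adjusted p = 0.583 and 0.404). By day 3 it had fallen to 1.51 to 4.15 CPM in WT and 1.71 to 5.12 CPM in KO cells. On day 7 a single count was found in the 3 WT libraries together and none in the KO libraries. The WT level was then 1926-fold lower than on day 0 (95% counting interval 345 to 76129), and the KO level at least 1696-fold lower, with 3 counts over the group as the floor. Intervals and floors cover counting error only.

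*Scgb3a2*, a further secretoglobin, is found at chr18:43764289-43767399, plus strand. It was at 165, 383, and 162 CPM in fresh WT cells and at 20.9, 25.7, and 19.4 CPM on day 1. In KO cells 460, 490.4, and 611 CPM became 38.7, 16.4, and 29.3 CPM. Days 0 and 1 were separated without overlap in both genotypes, and the gene fell by 3.43 ± 0.48 in WT and 4.21 ± 0.49 in KO cells on the log2 scale (SE, edgeR adjusted p = 1.60e-05 and 2.70e-06). No *Scgb3a2* count was seen on day 7, at least 3120-fold below day 0 in WT and at least 7997-fold below it in KO cells.

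*Cyp2f2*, at chr7:27119909-27133660 on the plus strand, encodes a P450 enzyme of club cells that activates naphthalene. Its fresh level was 1299, 1821, and 1074 CPM in WT and 1941, 2274, and 2240 CPM in KO cells. On day 1 it was at 260.1, 55.6, and 119 CPM in WT and 286, 66.9, and 167 CPM in KO cells, with batch 2 lowest in both. The decline was 3.27 ± 0.54 log2 units in WT and 3.64 ± 0.55 in KO cells (SE, edgeR adjusted p = 4.39e-05 and 1.73e-05). On day 3, 0.278% ± 0.0497 of the day 0 level was left in WT and 0.414% ± 0.318 in KO cells. By day 7 the 3 WT libraries held 18 counts and the 3 KO libraries 4.

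*Muc5b*, a gel-forming mucin gene at chr7:141839070-141873084 (plus strand), was the scarcest of the 8. In fresh WT cells it was at 5.15, 3.03, and 0.443 CPM, which is 113 counts in all, and in fresh KO cells at 14.5, 17.8, and 5.79 CPM, or 452 counts. It fell in KO cells from day 0 to day 1 (edgeR log2 change -4.58 ± 1.02, SE, adjusted p = 0.00133). In WT cells the change was -2.25 ± 0.96 (edgeR adjusted p = 0.0569), and with batch as a block the adjusted p was 0.0357. On day 3 WT cells gave 1 count, 161-fold below day 0 (95% counting interval 28.2 to 6398), and on day 7 there was none, at least 46.4-fold lower in WT and at least 189-fold lower in KO cells.

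The 3 genes grouped as ciliated differed in their courses as well. *Foxj1*, at chr11:116330704-116335399 on the minus strand, encodes the master regulator of motile cilia. It was at 83.5, 92.3, and 25.8 CPM in fresh WT cells and at 89.9, 59.0, and 29.5 CPM on day 1. In KO cells it was at 73.5, 105, and 55.1 CPM and then at 97.7, 75.9, and 93.3 CPM. In both genotypes it was higher on day 1 in batches 1 and 3 and lower in batch 2. Neither change passed the test (edgeR log2 -0.18 ± 0.50, adjusted p = 0.782, in WT and 0.19 ± 0.50, adjusted p = 0.773, in KO cells). By day 3 it was at 32.0, 21.6, and 14.7 CPM in WT cells, a log2 change of -1.56 ± 0.52 (edgeR adjusted p = 0.0146). That call rested on few libraries, since the adjusted p was 0.0586 without batch 1 and 0.172 without batch 2. On day 3 the KO libraries were at 54.7, 14.7, and 38.1 CPM, each below every fresh KO library, with an edgeR adjusted p of 0.0709 that became 0.0309 with batch as a block. *Foxj1* kept the highest share of its day 0 level of the 8 genes on day 7, 21.9% ± 3.69 in WT and 16.5% ± 2.47 in KO cells.

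*Tppp3*, at chr8:105467493-105471526 on the minus strand, encodes a tubulin-binding protein abundant in ciliated cells. It declined at every step. In WT cells it went from 344, 417, and 248 CPM to 143, 106, and 79.0 CPM on day 1, then to 47.7, 33.6, and 40.1 CPM on day 3 and 6.19, 4.73, and 5.97 CPM on day 7. KO cells went from 393, 457, and 329 CPM to 142, 125, and 91.9 CPM, then to 81.8, 27.5, and 65.8 CPM and 4.17, 2.02, and 2.36 CPM. Neither genotype had an overlap between consecutive days. The first-day decline was 1.62 ± 0.31 log2 units in WT and 1.71 ± 0.32 in KO cells (SE, edgeR adjusted p = 0.000216 and 0.000139).

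*Sec14l3*, at chr11:4064841-4077736 on the plus strand, encodes a lipid-binding protein of the SEC14 family. Fresh cells held it at 1483, 1518, and 1157 CPM in WT and 1475, 1718, and 1294 CPM in KO. On day 1 it was at 276, 87.5, and 194 CPM in WT and 284, 105, and 187 CPM in KO cells, again lowest in batch 2. It fell by 2.90 ± 0.37 log2 units in WT and 2.96 ± 0.37 in KO cells (SE, edgeR adjusted p = 2.06e-06 and 1.83e-06). On day 7 it was at 6.39 to 10.3 CPM in WT and 2.18 to 5.43 CPM in KO cells.

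**Figure D2:**
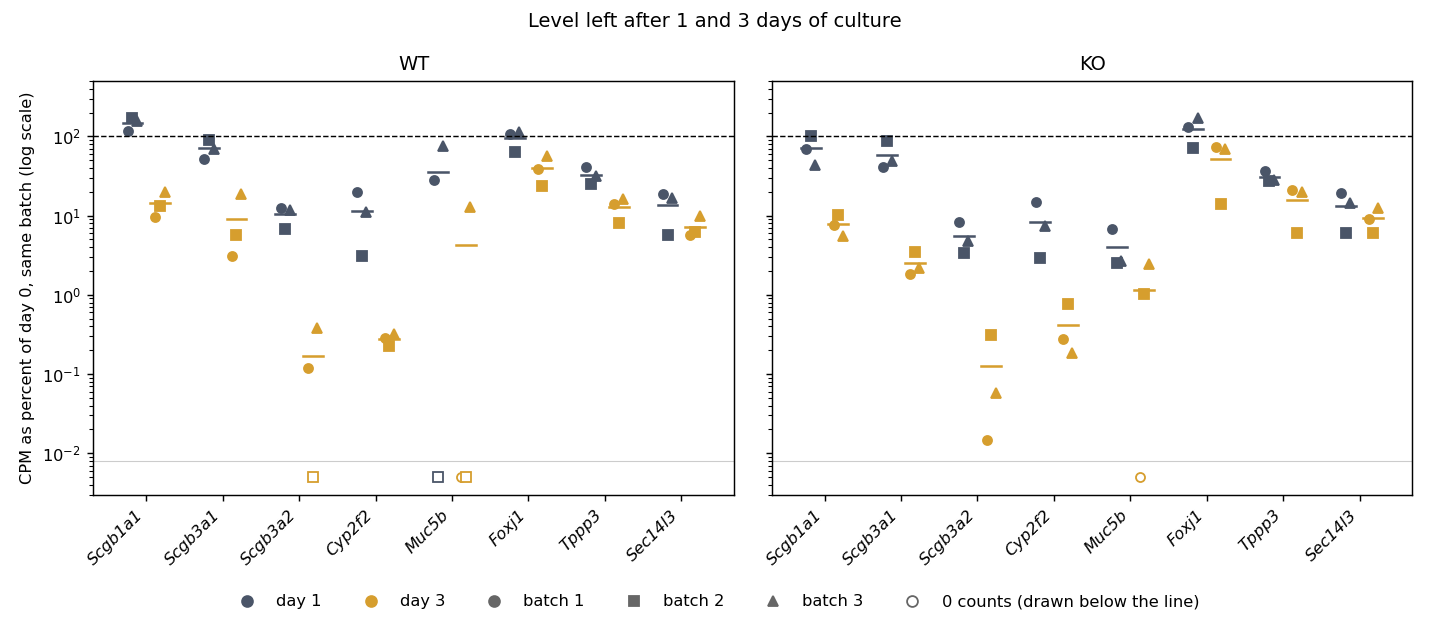
CPM on days 1 and 3 as a percent of day 0 in the same batch and genotype (log scale), with symbols for batches, bars for means, open symbols under the gray line for 0 counts, and a dashed line at 100%. On day 1 *Scgb1a1* averaged 147% in WT and 71.9% in KO cells, while *Scgb3a2* averaged 10.4% and 5.51%.

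Counted over the 8 genes, 4 were lower on day 1 than on day 0 in WT cells (*Scgb3a2*, *Cyp2f2*, *Tppp3*, and *Sec14l3*), beside 28.5% of all genes tested (edgeR adjusted p under 0.05). In KO cells 5 were lower, the same 4 and *Muc5b*, beside 26.9% of all genes. On day 3 all 8 were lower in WT cells, beside 27.8%, and 7 in KO cells, beside 26.6%, *Foxj1* being the exception. On day 7 all 8 were lower in both genotypes, beside 30.2% of all genes in WT and 29.9% in KO cells. From day 1 to day 7 all 8 were again lower in both, beside 19.7% and 18.7%. For *Muc5b*, whose levels were near 0 by then, that last call was lost in WT cells without batch 1 or 3 (edgeR adjusted p = 0.192 and 0.0682) and in KO cells without any 1 batch (0.0666 to 0.117). For *Foxj1* in WT cells it was lost without batch 1 (edgeR adjusted p = 0.0508). None of the 8 was higher in any of these comparisons. The median log2 change of the 8 was -1.93, -3.96, and -8.18 in WT cells on days 1, 3, and 7, with genes at 0 counts set to their floor, and -2.34, -4.48, and -9.27 in KO cells. Over all genes tested the medians lay between -0.01 and 0.00. Since the comparisons with day 0 share the same fresh libraries, they are not independent of each other.

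Promoters are given for 3 of the 8 genes. *Cyp2f2* and *Sec14l3* fell on day 1 in both genotypes, and *Scgb3a1* had log2 changes of -0.44 and -0.66 that did not pass the test. *Scgb3a2*, which also fell on day 1, was left out of the search. The difference between genes was not tested. The 200 bases before the most upstream annotated start are given for each, from RefSeq (GRCm38.p6), all on the plus strand, with matches to the searched motifs in capitals. They are chr11:49663395-49663594 for *Scgb3a1*, chr7:27119709-27119908 for *Cyp2f2*, and chr11:4064641-4064840 for *Sec14l3*.
Scgb3a1: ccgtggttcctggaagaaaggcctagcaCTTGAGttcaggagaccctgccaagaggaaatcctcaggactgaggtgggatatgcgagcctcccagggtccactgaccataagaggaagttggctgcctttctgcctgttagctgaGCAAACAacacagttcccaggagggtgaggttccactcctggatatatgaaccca
Cyp2f2: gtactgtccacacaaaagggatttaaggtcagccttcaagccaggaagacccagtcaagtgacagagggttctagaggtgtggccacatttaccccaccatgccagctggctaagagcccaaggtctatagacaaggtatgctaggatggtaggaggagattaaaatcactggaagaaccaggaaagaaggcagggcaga
Sec14l3: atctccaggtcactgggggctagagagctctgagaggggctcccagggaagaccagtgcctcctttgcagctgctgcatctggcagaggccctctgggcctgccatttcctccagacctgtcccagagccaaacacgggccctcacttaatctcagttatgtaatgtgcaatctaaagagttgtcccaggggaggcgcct

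The motifs searched, on both strands, were 5: forkhead (TGTTTNC), C/EBP (TTGCNNAA), an RFX half-site (GTTGCC), NKX2-1 (CTCAAG), and a TATA box (TATAAA). *Scgb3a1* held the NKX2-1 letters at bases 29 to 34 and the forkhead letters at bases 146 to 152, both on the opposite strand and not overlapping. Of 32851 promoter windows of that length, 10.5% held the NKX2-1 letters and 14.1% the forkhead letters, and the other 3 motifs were in 7.47% (C/EBP), 8.71% (RFX), and 9.96% (TATA). None of the 5 was in the *Cyp2f2* or *Sec14l3* window, which says only that these letters are not there.

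Other genes of the same cells were taken from 2 lists. Of 20 other club cell genes, 16 were lower and 1 was higher on day 1 in WT cells, with a median log2 change of -2.65, and 16 were lower in KO cells with a median of -2.50. On day 3, 18 were lower in WT and 19 in KO cells. The most abundant on day 0, *Cbr2*, a carbonyl reductase of club cells that AEC2s may also express, went in WT cells from 7533, 9764, and 8936 CPM to 2486, 571, and 1979 CPM on day 1 and 47.9, 46.3, and 36.8 CPM on day 3. *Selenbp1*, a selenium-binding protein gene, fell by 2.64 ± 0.44 log2 units on the first day in WT cells (SE, edgeR adjusted p = 4.93e-05), and *Hp*, which encodes haptoglobin, fell by 5.23 ± 0.57 (edgeR adjusted p = 2.29e-07). On day 1 *Cbr2*, *Selenbp1*, and *Hp* were lowest in batch 2 in both genotypes, as were the AEC2 genes. Whether club cells or AEC2s held these transcripts was not tested. The single gene called higher on day 1 in WT cells was *Gsta3*, a glutathione transferase, at 0.88 ± 0.23 (edgeR adjusted p = 0.00337). *Gsta3* is named because it was the exception among the calls. Another gene of the list had a larger positive log2 change, 2.60, which did not pass the test. A single gene was the count of the edgeR test as used throughout, and 2 were higher with DESeq2 size factors, with no filter, or with the compared groups alone.

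Of 35 other motile cilium genes, 34 were tested. On day 1, 16 were lower in WT cells and 13 in KO cells, with median log2 changes of -1.04 and -1.11, and on day 3, 30 and 27 were lower. On day 7 all 34 tested were lower in both genotypes. The day 1 and day 3 counts depended on batch 2. Without it, 6 and 17 were lower in WT cells, beside 3520 and 3697 of all 18523 genes tested. In KO cells 7 and 12 were lower without it, beside 3225 and 3432 of all genes. With every batch kept, all genes lower numbered 5144 and 5025 of 18046 in WT and 4852 and 4803 in KO cells. The 3 most abundant cilium genes of the list fell on the first day in both genotypes. In WT cells the log2 change was -2.41 ± 0.66 for *Cdhr3*, a cadherin family gene of ciliated cells (SE, edgeR adjusted p = 0.00575). It was -2.72 ± 0.55 for *Tmem212* (edgeR adjusted p = 0.000329). For *Ccdc153* it was -4.13 ± 0.50 (edgeR adjusted p = 3.47e-06). The change of *Foxj1* was smaller than in these 3, at -0.18, and the difference between genes was not tested. A small change on the first day was not particular to *Foxj1*. Of the 34 cilium genes tested, 18 were not called on day 1 in WT cells and 3 had positive changes. Their log2 changes ran from -4.26 to 0.86.

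**Figure D3:**
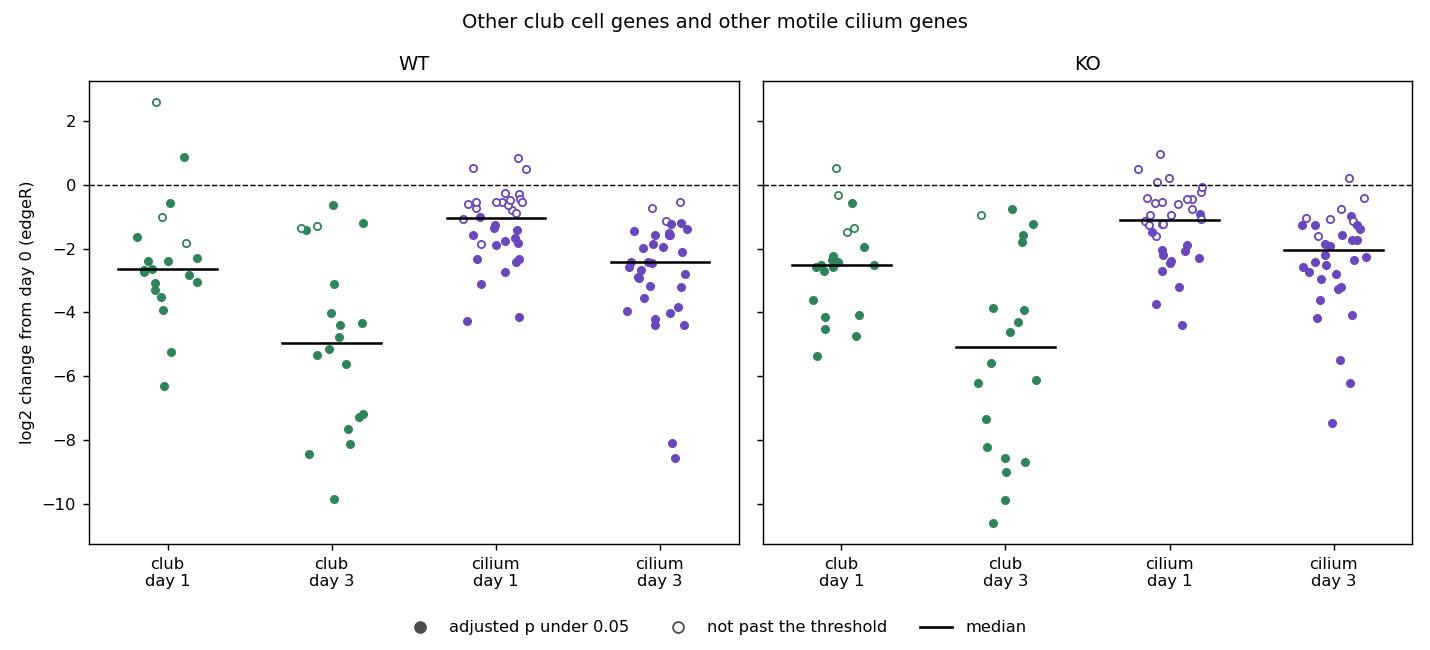
Log2 change from day 0 (edgeR) of the other club cell genes and the other motile cilium genes on days 1 and 3 in WT and KO cells, 1 point per gene, filled where the adjusted p was under 0.05, with bars at the medians. Genes without a count in 1 of the groups are not drawn but enter the medians at their floor. On day 1 the medians were -2.65 and -1.04 in WT cells.

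The 8 genes also varied among libraries of the same group. The deviations of log2 CPM from the group means were compared with the mean deviation of the listed genes, over 24 libraries that share batches. *Foxj1* and *Tppp3* followed the other motile cilium genes, with Pearson's r of 0.849 and 0.865. *Sec14l3* followed them less (r = 0.271) and followed the AEC2 genes at r = 0.853. Over these 24 libraries, then, *Sec14l3* varied with the AEC2 genes more closely than with the cilium genes it was grouped with. Among the secretory genes, r with the other club cell genes was 0.862 for *Cyp2f2*, 0.658 for *Muc5b*, 0.40 for *Scgb3a2*, 0.245 for *Scgb3a1*, and -0.023 for *Scgb1a1*. *Cyp2f2* also went with the AEC2 genes (r = 0.608), while *Scgb1a1* and *Scgb3a1* ran against the AEC2 genes (r = -0.527 and -0.552). Within the 5 secretory genes, r ranged from -0.313 to 0.501 over 10 pairs. These correlations are descriptions of 24 points, with 3 batches behind them. On day 1 the batch 2 library of each genotype was lowest in AEC2 genes, *Sec14l3*, and *Cyp2f2*. The same libraries were highest in *Scgb1a1* and *Scgb3a1* on that day. How far the r values with the AEC2 genes rested on those libraries was not tested.

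Of 17044 other genes, the 5 most like *Foxj1* in these deviations were *Dnajb13* (r = 0.966), *Fank1* (0.928), *Mapk15* (0.928), *Mycbpap* (0.922), and *Ccdc113* (0.920). Over the log2 CPM itself, which follows days as well, they were *Wdr34* (0.953), *Gnaz* (0.951), *Rpgr* (0.947), *Xrra1* (0.947), and *Cluap1* (0.946). For *Scgb1a1* the deviations gave *Ubl7* (0.867), *Tmem179b* (0.865), *Paip1* (0.858), *Nudt1* (0.847), and *Acsf3* (0.847), and log2 CPM gave *Lypd6b* (0.972), *Spa17* (0.970), *Rbp4* (0.964), *Abcc3* (0.964), and *Guca2a* (0.962). The *Scgb1a1* lists share no gene with each other, and neither do the *Foxj1* lists.

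The comparison of genotypes asks whether the airway genes differed in cells without keratin 8. On day 0 all 5 secretory genes were higher in KO than in WT cells in 3 of 3 batches, and in each the lowest KO library was above the highest WT library, which held for 3.14% of all genes tested. The ratio of the group means was 2.17 for *Scgb1a1*, 2.53 for *Scgb3a1*, 2.20 for *Scgb3a2*, 1.54 for *Cyp2f2*, and 4.41 for *Muc5b*. None passed the adjusted test (edgeR adjusted p = 1 for each of the 8), and 0.0111% of all genes were called higher. At an unadjusted p under 0.05, 3 of the 8 passed by edgeR (*Scgb1a1*, *Scgb3a2*, and *Muc5b*) and 2 by DESeq2, beside 2.65% and 2.96% of all genes. With batch as a block 4 passed, *Scgb3a1* being added, beside 3.27% of all genes. The log2 difference was 1.11 for *Scgb1a1* (95% interval 0.18 to 2.05), 1.14 for *Scgb3a2* (0.21 to 2.06), and 2.11 for *Muc5b* (0.25 to 3.98).

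The size of the day 0 difference varied between batches. KO over WT for *Scgb1a1* was 2.91 in batch 1, 1.21 in batch 2, and 3.37 in batch 3, and *Scgb3a2* gave 2.78, 1.28, and 3.77. For *Scgb3a1* it was 1.89, 2.01, and 8.56, and for *Muc5b* 2.81, 5.88, and 13.1, highest in batch 3, whose WT library was low in motile cilium genes. That WT library held only 4 *Muc5b* counts, and the KO library of batch 3, with 75, was the lowest of the fresh KO libraries. Without batch 3 the log2 differences were 0.78 for *Scgb1a1*, 0.97 for *Scgb3a1*, 0.80 for *Scgb3a2*, 0.44 for *Cyp2f2*, and 1.97 for *Muc5b*. Without batch 1, in which *Xist* and *Ddx3y* differed between genotypes, they were 0.97, 1.54, 1.01, 0.64, and 2.75. Without batch 2 they were 1.66, 1.66, 1.71, 0.81, and 1.83, with edgeR adjusted p = 0.264 for *Scgb3a2* and 1 for the other 4.

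The 3 ciliated members overlapped between genotypes on day 0. The log2 difference was 0.21 for *Foxj1* (95% interval -0.85 to 1.28), 0.22 for *Tppp3* (-0.43 to 0.87), and 0.11 for *Sec14l3* (-0.63 to 0.85). A difference as large as the 1.11 of *Scgb1a1* lies within the interval of *Foxj1* and outside those of *Tppp3* and *Sec14l3*. Among other club cell genes, 19 of 20 were higher in KO cells with a median log2 difference of 0.74 and none called. Their differences ran from -0.35 to 3.36, and 6 had an unadjusted p under 0.05 by edgeR, beside 2.65% of all genes. The 10 AEC2 genes had a median of -0.04, and the motile cilium genes one of 0.21. Goblet cell genes moved in the same direction as the secretory genes, with 6 of 7 higher and none called, but their sum was 22.7, 76.7, and 24.5 CPM in KO against 15.1, 19.7, and 11.1 CPM in WT libraries, batch 2 of KO being high through *Clca1* at 41.2 CPM. Their part in the difference was not tested.

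**Figure D4:**
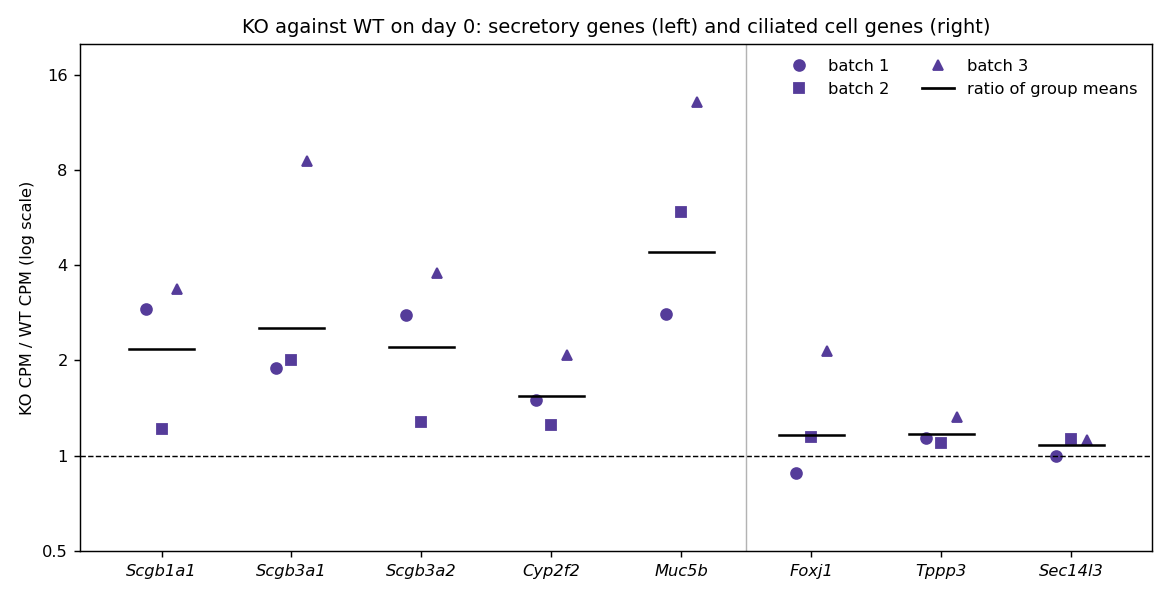
Ratio of KO to WT CPM on day 0 (log scale) in each batch, with a bar for the ratio of group means and a dashed line at 1. Secretory genes are on the left, all above 1 in the 3 batches, and the genes grouped as ciliated on the right.

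The genotypes were also compared on each day of culture. On day 1 none of the 8 was called (0.0166% of all genes in either direction), and none had an unadjusted p under 0.05 by edgeR or DESeq2, beside 3.54% and 3.83% of all genes. With batch as a block *Scgb3a1* did, beside 4.15%. The log2 difference of *Scgb1a1* was then -0.07 ± 0.44 (SE), and *Scgb3a1* remained higher in KO cells in 3 of 3 batches at 1.12 ± 0.65. Of the 20 other club cell genes, 17 were higher in KO cells on day 1 and none was called. Their log2 differences ran from -0.52 to 4.62 with a median of 0.21, and 4 had an unadjusted p under 0.05 by edgeR. On day 3 all 8 had a positive difference, none was called (0.0166%), and 1 had an unadjusted p under 0.05 by edgeR and by DESeq2, *Cyp2f2*, at 1.28 ± 0.57 (2.50% and 2.80% of all genes). *Cyp2f2* was then at 5.42, 17.7, and 4.15 CPM in KO and 3.74, 4.08, and 3.46 CPM in WT cells, with KO batch 2 highest. Over the alternatives run, its difference went down to 0.39. On day 7 none was called (0.0166%), and 2 had an unadjusted p under 0.05 by edgeR and 3 by DESeq2, beside 1.41% and 1.67% of all genes. *Tppp3*, *Sec14l3*, and *Cyp2f2* were then lower in KO cells in 3 of 3 batches without overlap, which held for 2.53% of all genes tested. *Cyp2f2* averaged 0.0969 CPM in KO and 0.431 CPM in WT cells. For *Tppp3* and *Sec14l3* the log2 difference was -0.96 ± 0.37 and -1.06 ± 0.40 (SE, edgeR adjusted p = 1 for both). *Scgb3a1*, *Scgb3a2*, and *Muc5b* had too few counts on day 7 for a comparison. When the course over days was compared between genotypes in 1 test, none of the 8 passed (edgeR, 0.00554% of all genes), and an unadjusted p under 0.05 was found for 1 by edgeR and 3 by DESeq2, beside 1.49% and 2.28% of all genes, and for 2 with batch as a block, beside 1.84%.

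Markers of other cells were measured beside these genes. The 6 airway basal cell genes summed to 0.664 to 4.97 CPM in fresh libraries and 6.85 to 11.1 CPM on day 1. The 6 tuft cell and ionocyte genes summed to 230 to 374 CPM in fresh libraries and 52.5 to 128 CPM on day 1. Most of that was *Cftr*, a chloride channel gene, which averaged 297 CPM in WT and 253 CPM in KO cells on day 0, while the ionocyte factor *Foxi1* had no count in any library. The 7 neuroendocrine cell genes summed to 8.64 to 23.7 CPM on day 0 and 128 to 253 CPM on day 1, mostly through *Uchl1*, a ubiquitin hydrolase gene, at 166 CPM in WT and 174 CPM in KO cells. The 6 macrophage genes summed to 7.80 to 45.9 CPM in fresh libraries, 21.2 to 179 CPM on day 1, and 8.04 to 133 CPM on day 7. From day 0 to day 1 all 6 had positive log2 changes in both genotypes, with medians of 2.41 in WT and 1.88 in KO cells. Only 1 of the 6 was called higher in each genotype, beside 26.2% of all genes in WT and 23.7% in KO cells (edgeR adjusted p under 0.05). The 6 fibroblast genes summed to 292 to 980 CPM on day 0, 92.5 to 253 CPM on day 1, and 629 to 3174 CPM on days 3 and 7. They did not move together. On day 7 against day 0, 3 were higher and 2 lower in WT cells, and 3 higher and 1 lower in KO cells. Of all genes, 28.6% were higher and 30.2% lower in WT, and 28.6% and 29.9% in KO cells (edgeR adjusted p under 0.05). The part of these cells in the falling levels of the airway genes was not tested.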

How the data were processed

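The authors deposited 1 table of estimated counts per gene for 24 libraries, in whole numbers. Tools named in the submitters' processing notes are cutadapt 2.3, STAR 2.7.8a, and RSEM 1.3.3, with build GRCm38. Reads were divided among genes with identical transcripts, and the values were rounded before testing. Symbols matched 55154 of 55421 identifiers, 5 reporter entries had 0 counts, and identifiers without a symbol held at most 0.0644% of a library. Coordinates and exon lengths are from GENCODE M21.

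Filtering (filterByExpr, minimum count 10, minimum total 15) left 18046 genes. With TMM scaling, all 8 groups entered 1 quasi-likelihood fit in edgeR 4.0.16 (R 4.3.3; 16 residual degrees of freedom), and p-values were adjusted by Benjamini-Hochberg over all genes (threshold 0.05). Scripts were tested on simulated data. P-values of this fit measure the spread among the 3 libraries within a group, pooled over the 8 groups. It has no term for batch, so it treats libraries that share a batch as independent. The genes, lists, and tests were chosen with earlier results of these data known. Named besides the 8 genes were the 3 most abundant genes on day 0 of the other club cell and other motile cilium lists, and the 5 genes most correlated with *Scgb1a1* and with *Foxj1* among those at 1 CPM or more in a group (log2 CPM, prior count 2). The labels give each replicate number a batch that genotypes and days share, which pairs the libraries. Deviations of paired libraries correlated at -0.015 to 0.548 over 36 pairs. Alternatives were size factors and the test of DESeq2 1.42.0, no filter, batch as a block, the compared groups alone, each batch left out, and Spearman correlation.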

Additional observations from a re-analysis of the deposited data

How the results depend on the processing

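The counts of the 8 genes called lower or higher stayed within 1.5 times of those given under all alternatives run. With batch as a block, which pairs the libraries, *Muc5b* in WT cells on day 1 (log2 -2.14) and *Foxj1* in KO cells on day 3 (-1.08) became called, and the KO minus WT log2 difference of *Scgb1a1* on day 1, which was not called, changed sign (0.039). The block changed no other call of the 8 genes. Leaving out 1 batch in turn, uncalled log2 changes on day 1 changed sign for *Foxj1*, from -0.42 to 0.20 in WT and from -0.044 to 0.66 in KO cells. Uncalled KO minus WT differences also changed sign. For *Scgb1a1* the lowest and highest were -0.32 and 0.31 on day 1, -0.11 and 0.38 on day 3, and -0.31 and 0.47 on day 7. They ranged from -0.67 to 0.75 on day 1 for *Muc5b*, from -1.01 to 2.95 on day 3 for *Scgb3a2*, and from -0.25 to 0.16 on day 7 for *Foxj1*. The cause was not tested. *Foxj1* in KO cells on day 3 was also called by DESeq2, with no filter, with the compared groups alone, and without batch 3 (adjusted p = 0.0276 to 0.0474), and *Muc5b* in WT cells on day 1 with no filter (edgeR adjusted p = 0.0317). With the compared groups alone, 10 rather than 16 motile cilium genes were lower on day 1 in WT cells. All genes lower were then 3817 of 15743 rather than 5144 of 18046. With no filter, 2 other club cell genes were called higher in KO than in WT cells on day 0 and 2 on day 1. All genes called higher with no filter numbered 7 and 3 of 32971. DESeq2 called 1 of the list higher on day 1, beside 2 of all 18046 genes. From day 0 to 1 in KO cells, 1 such gene was called higher with DESeq2 size factors, DESeq2, or the block, and 0 otherwise. Of the 5 genes most like *Scgb1a1*, Spearman correlation kept 1 by either measure, and for *Foxj1* it kept 3 by log2 CPM and 2 by deviations. Depth limits *Muc5b*, with 113 counts over the fresh WT libraries, more than the other genes.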
